A study of Ramazzottius varieornatus with 18 samples.

Results

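Ramazzottius varieornatus genes that had more than 1 isoform expressed in the juvenile stages are described here, each isoform by its share of the gene. A gene was taken when at least 2 of its predicted transcripts each had a mean of 10 TPM or more over 18 juvenile libraries. TPM, the unit of relative transcript abundance used throughout, divides the reads of a transcript by its effective length and scales each library to the same total. Of 13920 genes and 14532 transcripts in the reference, 551 genes had more than 1 transcript, and 103 genes met the threshold. Of these, 2 that a gene list of the study names were left out, and the 100 genes with the highest summed mean TPM were kept of the remaining 101. The 100 genes had 214 transcripts, of which 202 were at a mean of 10 TPM or more. There were 88 genes with 2 transcripts, 11 with 3 and 1 with 5. The gene identifiers carry the transcript number after the letter t (g6088.t1 and g6088.t2 are isoforms of g6088). None of them is paired with a gene name in the tables used here (0 identifiers matched), and no function is given for any.

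The libraries came from whole bodies of strain YOKOZUNA-1, at days 2 to 7 of the juvenile stage (Juvenile 2d to Juvenile 7d), with 3 libraries for each day. The methods of the study describe a collection that starts a day later than the labels do, and the labels were followed. The animals were reared on agar with Chlorella vulgaris as food, all days in the same way, and no treatment was applied. The labels do not say whether the libraries of a day came from separate cultures, so p-values measure only the spread between these samples, which may be technical. In whole animals, fewer cells of a type and less RNA per cell cannot be told apart. Estimated counts summed to between 1250604 and 5095736 for each library (median 3700490), with the lowest sum in Juvenile 7d replicate 3. The mean Pearson correlation of a library with its replicates, across transcripts on the log2(TPM + 1) scale, was 0.961 to 0.981 in Juvenile 2d to 5d and 0.873 to 0.922 in Juvenile 6d and 7d, where Juvenile 6d replicates 1 and 3 and Juvenile 7d replicate 3 were lowest.

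A gene yields isoforms when its precursor RNA is spliced in more than 1 way, or when transcription starts or ends at other sites, and the isoforms can encode proteins that differ by a few residues or by whole domains. Short reads often match a stretch that isoforms share. Kallisto, which the authors used, then divides such reads between the isoforms by likelihood, so that the level of the gene is better determined than the division between its isoforms.

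The genes were chosen by their mean TPM over all libraries, and the values of that measure are given only as a description. Just past the threshold, the less abundant isoform of g7215 had a mean of 10.1 TPM. Just under it, that of g10174 had 9.75 TPM. By rank, the last gene kept was g7215 with a summed mean of 22.8 TPM and the first left out was g7017 with 21.1 TPM. A mean over all days can be reached through a few days. Both isoforms had a daily mean of at least 10 TPM on all 6 days in 41 genes, on 3 to 5 days in 55 genes and on 1 or 2 days in 4 genes.

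The isoforms of many of these genes were close in length. The coding lengths of the leading isoform, the more abundant one by mean TPM, and of the second isoform differed by a median of 18 bases, and by no more than 15 bases in 48 of the 100 genes. In the other 451 genes with more than 1 transcript, the median difference was 81 bases and 128 genes (28.4%) were within 15 bases. Every difference in the 100 genes was a multiple of 3. Of all coding lengths in the reference, 99.6% are multiples of 3, so this was given in advance for nearly any pair. The lengths were equal in 6 genes, differed by 3 bases in 11 and by 6 bases in 12, and differed by more than 150 bases in 13. The largest difference was 2322 bases in g3593, with 3771 bases for g3593.t2 and 1449 bases for g3593.t1. The leading isoform was the longer one in 48 genes and the shorter one in 46.

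**Figure D1:**
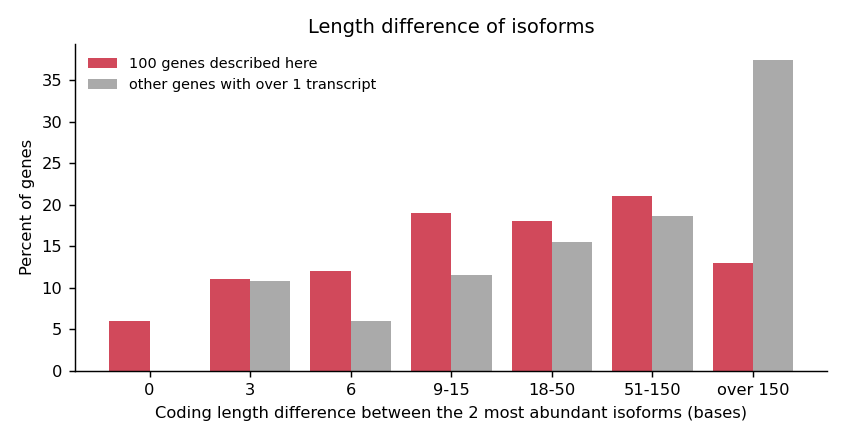
Percent of genes (y axis) by the difference in coding length, in bases, between the 2 most abundant isoforms (x axis), for the 100 genes and for the 451 other genes with more than 1 transcript. Differences of up to 15 bases take 48.0% of the 100 genes and 28.4% of the others.

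Nearly all of these genes had, in most libraries, reads that kallisto divided between transcripts. An estimated count that is not whole (by more than 0.001) marks a transcript to which kallisto divided at least 1 read. It does not say what share of the reads was divided, nor whether the other transcript belonged to the same gene. In g5794 the summed counts were themselves not whole, with 2246.93, 3500.56 and 952.735 at Juvenile 3d. Some of its reads were thus divided with transcripts of other genes, and its level depends on that division. Of the transcript values of at least 0.5 counts, 2.59% were whole in the 100 genes and 27.0% in the 451 other genes with more than 1 transcript. The rule chose genes with abundant isoforms, and a higher count holds more reads that can be divided. The percentages were not compared at equal abundance. Counts that were not whole were present in all 18 libraries in 71 genes, in 15 to 17 libraries in 20 genes and in under 15 libraries in 9 genes. The mark misses an even split into whole numbers, as in g750, which had counts that were not whole in 10 libraries. Of 1709 pairs of gene and library in which both isoforms had a count, 11 had whole counts for both, 8 of them such even splits of g750. In the 5 genes called in a share test below, counts were not whole in 13 to 18 of the 18 libraries.

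g750 shows the limit of this division. Its isoforms have the same coding length, 447 bases, and the same TPM in all 18 libraries, so that each had a share of 50% throughout, and reads did not tell them apart. The level of the gene does not depend on the division. It was 755, 796 and 921 TPM in the 3 libraries of Juvenile 2d, 792, 861 and 661 TPM at 3d, 772, 758 and 729 TPM at 4d, 556, 578 and 479.6 TPM at 5d, 519, 478 and 469.8 TPM at 6d and 475, 510.2 and 471 TPM at 7d. All libraries of the first 3 days lay above all libraries of the last 3 days, and g750 was lower late than early (log2 fold change -0.95, SE 0.13, adjusted p = 0.00016, edgeR quasi-likelihood test with Benjamini-Hochberg adjustment).

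The summed level of the 100 genes was highest at Juvenile 4d. It was 9616 ± 351 TPM at 2d, 14892 ± 3336 TPM at 3d, 29232 ± 2946 TPM at 4d, 13774 ± 811 TPM at 5d, 12921 ± 4402 TPM at 6d and 16037 ± 2177 TPM at 7d (mean ± SD, N = 3). The 3 libraries of Juvenile 4d, from 27374 to 32628 TPM, lay above all others. Most of the height of this day came from g1386, g7288 and g5794, which summed to 17425 TPM at 4d and to 1853 TPM at 2d. The other 97 genes summed to 7763 ± 205 TPM at 2d and 11807 ± 413 TPM at 4d.

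**Figure D2:**
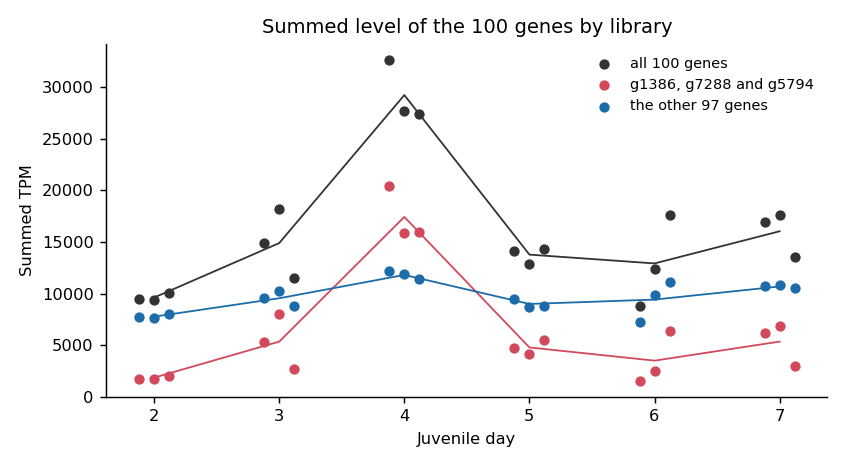
Summed TPM (y axis) of all 100 genes, of g1386, g7288 and g5794, and of the other 97 genes by juvenile day (x axis). Points are single libraries and lines join the daily means, which for all 100 genes reach 29232 TPM at 4d.

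Gene levels, as the sum of the estimated counts of all isoforms, were compared between the days with the edgeR quasi-likelihood test and Benjamini-Hochberg adjustment over all genes, at an adjusted p of up to 0.05. All 100 genes passed the filter on low counts. Any difference over the days was called in 81 of them, and in 69.7% of all genes tested. A total of 36 genes had their highest daily mean TPM at Juvenile 4d (27.1% of all genes tested) and 30 at 7d (29.9% of all), while 50 had their lowest at 2d (48.4% of all). The highest daily mean was at least 1.19 times the lowest in every gene, with a median of 2.11 times.

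Late juveniles (6d and 7d) were then compared with early juveniles (2d and 3d). Of the 100 genes, 30 were higher late (28.4% of all genes tested were higher) and 22 were lower late (19.9% of all genes tested were lower). The median log2 fold change was 0.03 over the 100 genes and 0.09 over all genes tested. The rises called had a median log2 fold change of 1.09, with 18 genes at 1 or more. The falls had a median of -0.70, with only g11826 and g8609 at -1 or less.

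The steepest rises were from levels near 0. The main isoform of g1386, g1386.t2, had 0.614, 1.32 and 0.842 TPM at Juvenile 2d, from 1, 3 and 2 counts. It had 1729, 3259 and 532 TPM at 3d, 9822, 7822 and 8128 TPM at 4d, 1163, 1103 and 2199.7 TPM at 5d, 110.4, 247 and 1884 TPM at 6d and 2529, 2782 and 334 TPM at 7d. The 4d libraries lay far above those of every other day and the 2d libraries far below. Its share was 100% at 2d from those few counts, 90.1 ± 5.58% at 3d and 96.1 ± 3.61% at 7d, and it was the higher isoform in all 18 libraries. Summed over isoforms, the late minus early log2 fold change was 4.43 (SE 0.75, edgeR adjusted p = 0.000453), a value that depends on the few counts at 2d.

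g5794 followed the same course with both isoforms together. The gene was listed at 0 in replicates 1 and 2 of Juvenile 2d and had 1 count in replicate 3. Its level was 1398, 2453 and 518 TPM at 3d, 7206, 4855.2 and 4665 TPM at 4d, 1049, 514 and 1515 TPM at 5d, 8.90, 320.4 and 2495 TPM at 6d and 2120.0, 2184 and 772 TPM at 7d. All 3 libraries of 4d lay above those of the other days, and those of 6d spread from 8.90 to 2495 TPM. The share of g5794.t1 (543 bases, against 531 bases for g5794.t2) was 52.5 ± 3.79% at 3d, 49.3 ± 1.71% at 4d, 51.5 ± 3.96% at 5d, 67.1 ± 18% at 6d and 66.4 ± 4.52% at 7d. At 7d its 3 libraries, with 61.2, 69.4 and 68.6%, lay above those of 3d to 5d, but no share test called the gene (limma adjusted p = 0.396 over the days). The fitted log2 fold change in gene level, 5.55 (SE 1.05, edgeR adjusted p = 0.000842), depends on the near absence of counts at 2d.

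**Figure D3:**
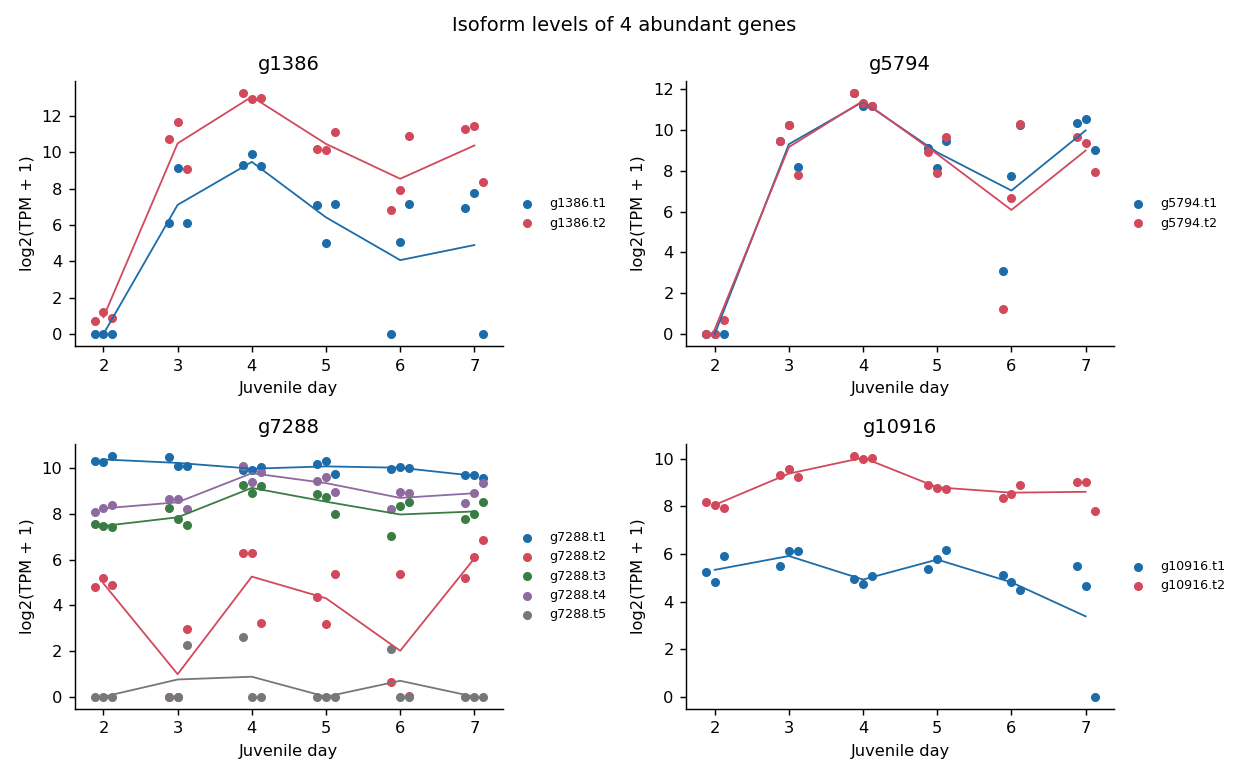
Level on the log2(TPM + 1) scale (y axis) of each isoform of g1386, g5794, g7288 and g10916 by juvenile day (x axis). Points are libraries and lines join daily means. In g1386 and g5794 the isoforms rise and fall together, while in g7288 the t3 and t4 isoforms are highest at 4d and t1 is not.

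The steepest falls were in g11826 and g8609. g11826 had 206, 297 and 239 TPM at Juvenile 2d, 155, 159 and 210.0 TPM at 3d, 41.5, 62.4 and 75.6 TPM at 4d, 108, 119 and 155 TPM at 5d, 169, 141 and 66.7 TPM at 6d and 45.8, 65.3 and 66.4 TPM at 7d. It was lowest at 4d and 7d, and the log2 fold change late minus early was -1.51 (SE 0.27, edgeR adjusted p = 0.000661). Its isoforms, 402 and 408 bases long, were divided unevenly within days. At 6d the share of g11826.t1 was 0, 72.6 and 0% in the 3 libraries, and at 4d 0, 40.2 and 0%. It also had the fewest libraries with counts that were not whole, 7. For g8609 the log2 fold change was -1.08 (SE 0.24, edgeR adjusted p = 0.00257), with 92.3 ± 7.79 TPM at 2d and 50.1 ± 7.55 TPM at 7d, and the share of g8609.t2 was 76.0 ± 10.8% and 80.2 ± 4.75% on these days.

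g10916, the fifth most abundant gene, has long isoforms, with 3330 bases for g10916.t1 and 3285 for g10916.t2. Its level was 329.9, 294 and 302 TPM at 2d, 689, 827 and 671 TPM at 3d, 1151, 1050.2 and 1070.4 TPM at 4d, 517, 488 and 500.2 TPM at 5d, 359.6, 389.7 and 493 TPM at 6d and 559, 547 and 223 TPM at 7d. The 4d libraries lay above all others. The share of the minor isoform, t1, was 11.3, 9.41 and 19.4% at 2d, 6.4, 8.44 and 10.2% at 3d, 2.63, 2.47 and 3.03% at 4d and 7.81, 11 and 14.1% at 5d. Thus its 4d libraries lay below those of 2d, 3d and 5d, on a day when the gene was highest, yet the share tests did not call the gene (limma adjusted p = 0.328 over the days, and edgeR adjusted p = 0.472 for 4d against 3d). In the shallowest library, Juvenile 7d replicate 3, nearly no count was given to t1.

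Over all 100 genes, the leading isoform had a median share of 63.8% of the TPM of the gene, from 43.2% to 94.3%. The share was 75% or more in 17 genes, 60 to 75% in 42 and under 60% in 41. The leading isoform was t2 in 53 genes, t1 in 43 and t3 in 4. It was the higher isoform in all 18 libraries in 32 genes. By estimated counts, which are not divided by length, another isoform led in 7 genes.

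Replicates of the same day varied widely in share. The within-day SD of the leading share had a median of 9.78 percentage points, and the range of the 6 daily means a median of 20.6 points. In the 50 more abundant genes (median of 570.4 counts per library) these were 7.85 and 12.7 points, and in the 50 less abundant ones (277 counts) 12.4 and 24.0 points. Between early and late juveniles the share moved by a median of 6.30 points, by under 10 points in 68 genes and by 20 points or more in 6. Among these 6, g6281 and g5794 had at most 2 counts in each library of 2d. Another gene was at 0 in all 3 libraries of that day. The mean share of g6281.t2 was 43.8% early and 75.3% late, but 87.7% at 3d. The second isoform was under 0.5 counts in 79 of 1800 pairs of gene and library. Of these pairs, 14 were in Juvenile 7d replicate 3, and the other 17 libraries had 0 to 9 each. This library also lay farthest from the mean shares, by a median of 11.8 points, against 5.31 to 9.85 points in the others.

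**Figure D4:**
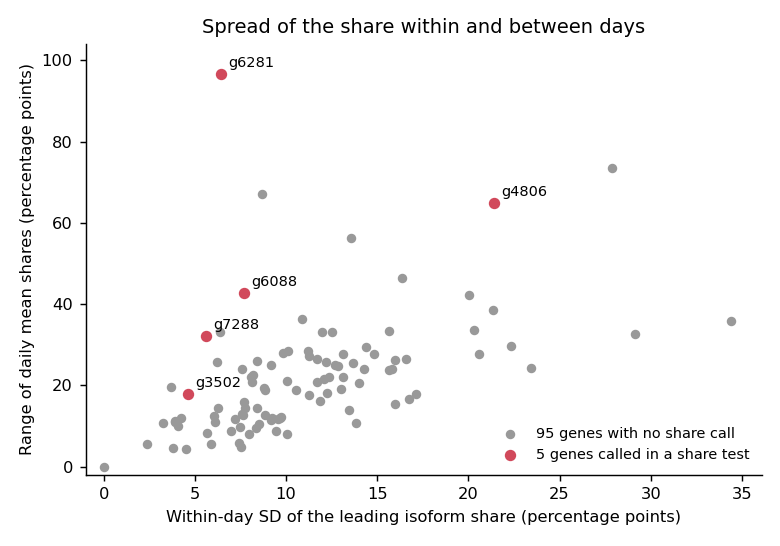
Range of the daily mean shares of the leading isoform (y axis, percentage points) against the within-day SD of that share (x axis, percentage points), 1 point for each of the 100 genes. The 5 genes called in a share test are named, and the median gene has a range of 20.6 points at an SD of 9.78 points.

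In the test of any difference in share over the days (limma on the log2 ratio of the isoform to the other isoforms with a pseudocount of 1, the isoforms of a gene combined by the method of Simes), 3 of the 100 genes were called, g6281, g4806 and g6088, and 1.70% of the 294 genes tested. Late against early, edgeR called 3 of the 100 genes, g7288, g3502 and g6088, and 3.19% of 345 genes tested. At 4d against 3d, edgeR called only g7288, and 0.870% of the genes tested. Of the 100 genes, 13, 18 and 6 were at an unadjusted p under 0.05 in the 3 tests, beside 12.6%, 18% and 8.41% of all genes tested, so that these counts were near the background. In all, 5 genes were called in at least 1 share test. The matching count over all genes tested was not computed.

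g6088 was called in both the test over the days and that of late against early. Its isoforms differ in length by 873 bases (570 bases for g6088.t1 and 1443 for g6088.t2). The share of g6088.t1 was 15.6, 24.0 and 28.6% at Juvenile 2d, 45.5, 42.1 and 49.2% at 3d, 62.7, 66.7 and 60% at 4d, 55.3, 33.2 and 34.1% at 5d, 46.4, 38.3 and 55.4% at 6d and 73.2, 65.6 and 57.8% at 7d. All libraries of 4d and 7d lay above 50% and all of 2d and 3d below it. By estimated counts, the daily mean share of g6088.t1 was 5.71% at 2d, 25.8% at 4d and 28.4% at 7d. The crossing of 50% in TPM thus depends on the effective lengths. The level of t1 was 2.95, 6.90 and 6.52 TPM at 2d, 10.5, 9.57 and 12.9 TPM at 3d, 23.0, 24.6 and 20.7 TPM at 4d, 12.05, 4.96 and 6.53 TPM at 5d, 5.64, 9.15 and 17.2 TPM at 6d and 30.1, 24.8 and 19.6 TPM at 7d. The level of t2 was 15.9, 21.9 and 16.2 TPM at 2d, 13.7, 12.3 and 13.8 TPM at 4d and 11, 13.0 and 14.3 TPM at 7d. By daily mean, t1 was lowest and t2 highest at 2d.

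The adjusted p of g6088 was 0.026 over the days (limma) and 0.0349 late against early (edgeR). With the replicate number as a further term, neither was called (0.0646 by limma and 0.0563 by edgeR). With a pseudocount of 0.1, the share over the days was not called (limma adjusted p = 0.0549). Late against early, g6088.t1 rose (log2 fold change 0.76, SE 0.27, adjusted p = 0.0313, edgeR) and g6088.t2 fell (-0.64, SE 0.13, adjusted p = 0.00175, edgeR). The longer isoform takes most counts of the gene, and summed counts fell (log2 fold change -0.43, SE 0.12, edgeR adjusted p = 0.00964) while summed TPM was 23.5 ± 4.99 at 2d, 24.0 ± 1.89 at 3d, 22.4 ± 9.58 at 6d and 37.6 ± 3.63 at 7d. g6088.t1 rested on 4.03 to 51.6 counts in each library. Over the days, leaving out any of Juvenile 2d replicates 1 and 2, 4d replicates 1 and 2 and 5d replicate 2 ended the call (adjusted p of up to 0.0981, limma), and without all 3 libraries of 2d the adjusted p was 0.399 (limma, an alternative chosen after seeing the data). Late against early, so did leaving out any of 2d replicates 1 and 2, 3d replicates 1 and 2, 4d replicates 1 to 3, 6d replicate 3 and 7d replicates 1 and 2 (up to 0.098, edgeR), or the 3 late libraries that correlated least with their replicates (0.125). The rise of g6088.t1 was not called without 2d replicate 1, 3d replicate 1 or 2, 6d replicate 3 or 7d replicate 1 (edgeR adjusted p of up to 0.102), nor without those 3 late libraries (0.0944).

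g7288 was the second most abundant gene and has 5 transcripts. The share of g7288.t1 (855 bases) was 72.7, 70.6 and 73.8% at 2d, 67.0, 64.2 and 69.0% at 3d, 34.9, 44.4 and 41.4% at 4d, 49.1, 51.1 and 52.2% at 5d, 70.0, 55.2 and 55.0% at 6d and 58.0, 51 and 40.3% at 7d. All libraries of 4d lay below all of 2d, 3d, 5d and 6d. The level of t1 itself was 1431, 1106 and 1100.1 TPM at 3d and 972, 981 and 1078 TPM at 4d, while g7288.t3 (756 bases) had 306, 217 and 184 TPM at 3d and 619, 478 and 603 TPM at 4d. A short isoform, g7288.t4 (345 bases), had 399.8, 401 and 299.8 TPM at 3d and 1109, 672 and 916 TPM at 4d. Both t3 and t4 were higher in every library of 4d than in any of 3d, whereas t1 was lower.

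For g7288 the share differed at 4d against 3d (edgeR adjusted p = 0.00129) and late against early (edgeR adjusted p = 0.0421). Leaving out Juvenile 3d replicate 1 (0.0806) or replicate 2 (0.0589) ended the first call, and limma gave 0.414. The second ended without 12 of the 18 libraries in turn, namely 2d replicates 1 to 3, 3d replicates 1 and 2, 4d replicates 1 and 2, 5d replicates 1 and 2, 6d replicate 2 and 7d replicates 2 and 3 (edgeR adjusted p of up to 0.47, without 6d replicate 2). It also ended with the replicate number as a further term (edgeR adjusted p = 0.113) and by limma on the ratio (adjusted p = 0.178). Late against early, g7288.t1 fell by 0.73 on the log2 scale (SE 0.14, edgeR adjusted p = 0.00129), and g7288.t3 (log2 fold change 0.13, SE 0.19) and g7288.t4 (0.16, SE 0.15) did not pass the test. The TPM of g7288.t4 rests on few counts. Its coding length is under the mean fragment length of 350 bases that the authors set, which left a mean effective length of 38.8 bases against 505 bases for t1, so its 324, 176 and 287 counts at 4d were 4.40% of the counts of the gene and 35.2% of its TPM. The share of t1 in counts was 84.9% at 3d and 64.3% at 4d. The methods of the study describe libraries size selected at a shorter length than the 350 bases set. Effective lengths and TPM shares under a shorter length were not computed.

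In g3502 the leading isoform gained. The share of g3502.t2 (1245 bases) was 77.8, 80.0 and 72.0% at 2d, 69.9, 70.5 and 72.5% at 3d, 76.8, 69.3 and 79.2% at 4d, 89.2, 88.4 and 89.1% at 5d, 80.0, 89.6 and 91.1% at 6d and 85.5, 80.3 and 93.9% at 7d. The libraries of 5d and 7d lay above all of 2d to 4d. However, g3502.t3 (318 bases, mean effective length 30.9 bases) took up to 10.6, 6.31 and 13.5% at 2d, 3d and 4d. These shares came from 1.51, 0.839 and 1.75 counts, lowered those of t2, and were 0 at 5d to 7d. By counts, the highest share of t2 at 2d was 72.9% and the lowest at 7d 73.0%. The share differed late against early (edgeR adjusted p = 0.00444), with g3502.t2 higher late (log2 fold change 0.78, SE 0.20, edgeR adjusted p = 0.00592) and g3502.t1 (1710 bases) lower late (-0.42, SE 0.12, edgeR adjusted p = 0.00985). These calls held without any single library. By limma on the ratio the adjusted p was 0.118.

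The other genes called over the days were nearly absent on some days. g6281.t2 (1008 bases) had 90.7, 83.5 and 88.8% of the gene at 3d, 92.8, 92.4 and 95.6% at 4d, 100, 100 and 89.9% at 5d, 84.6, 71.9 and 66.4% at 6d and 76.4, 86.8 and 65.7% at 7d. It was listed at 0 at 2d, when the whole gene had 2, 1 and 2 counts, all given to g6281.t1 (900 bases). The largest range of daily means of the 100 genes, 96.6 points, therefore rests on 1 to 2 counts in each library of 2d. The level of the gene was 314, 325 and 270.0 TPM at 4d and 157, 137 and 60.1 TPM at 7d (adjusted p for the share over the days = 0.00162, limma). At 2d the pseudocount of 1 holds the tested ratio near 0 whatever the share. Without the libraries of 2d the adjusted p was 0.0378 (limma), still with only 7 and 32 counts of the gene in 2 libraries of 6d. Its share did not pass the test late against early (edgeR adjusted p = 0.644).

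By daily mean, another isoform of g4806 led on Juvenile 4d than on 5d. The gene had 4.48, 5.72 and 2.25 TPM at 2d, 6.58, 5.16 and 1.75 TPM at 3d, 42.2, 81.2 and 44.9 TPM at 4d, 417, 296 and 205 TPM at 5d, 36.8, 77.4 and 51.1 TPM at 6d and 28.8, 14.1 and 287 TPM at 7d. Its level peaked at 5d, with 1 library of 7d in the same range. The share of g4806.t1 (999 bases) was 9.89, 41.4 and 7.70% at 4d and 77.3, 81.8 and 84.6% at 5d. g4806.t3 (1002 bases), which is under the 10 TPM threshold over all days, had 52.4, 38.1 and 52.9% at 4d from 108, 135 and 125 counts. At 5d it was given 0 of 2018, 1399 and 994 counts of the gene, which allows shares of the counts of up to 0.149, 0.214 and 0.302% (3 counts, which covers counting error only and not the division of reads). The share over the days differed with an adjusted p of 0.00387 (limma), while at 2d and 3d the gene had 11 to 36 counts per library. With the arcsine square root of the share in place of the ratio, the adjusted p was 0.0634, and without the libraries of 2d it was 0.0169 (limma).

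**Figure D5:**
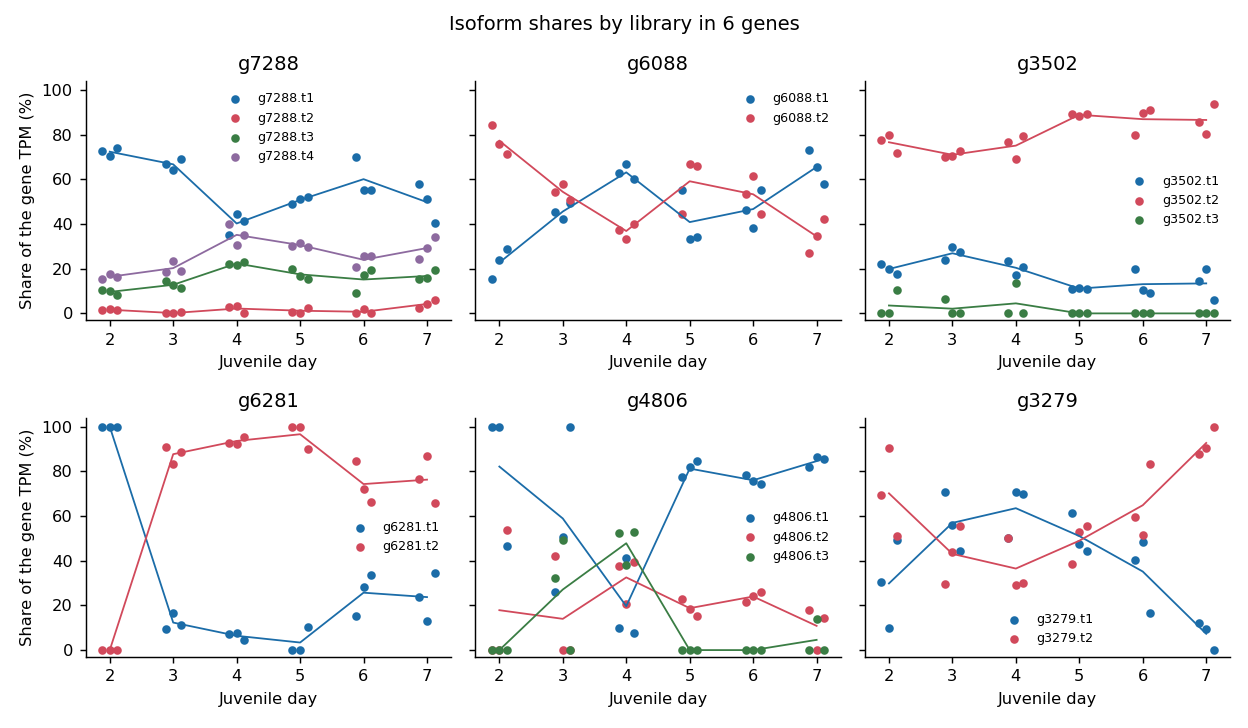
Share of the gene TPM in percent (y axis) of each isoform with a share of at least 1% in some library, for g7288, g6088, g3502, g6281, g4806 and g3279, by juvenile day (x axis). Points are libraries and lines join daily means. The points of g6088.t1 are above 50% at 4d and 7d and below it at 2d and 3d.

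Isoforms of the same gene that were called in opposite directions late against early were found in 3 of the 100 genes, g3279, g6088 and g3502, and in 1.45% of 345 genes (edgeR). Counted singly, 52 of 209 isoforms of the 100 genes that passed the filter were higher late (27.2% of all isoforms tested) and 25 were lower late (18.8% of all isoforms tested). The isoforms of g3279 differ by 15 bases (1176 bases for t1 and 1191 for t2). The level of g3279.t1 was 34.5, 11.3 and 59.9 TPM at 2d, 187, 138 and 88.8 TPM at 3d, 197, 261 and 257 TPM at 4d, 51.2, 109 and 39.2 TPM at 6d and 25.2, 19.0 and 0.00464 TPM at 7d. That of g3279.t2 was 77.9, 105 and 62.0 TPM at 2d, 78.0, 109 and 112 TPM at 3d, 75.9, 116 and 197 TPM at 6d and 180.3, 178 and 298 TPM at 7d. At 7d all libraries of t2 lay above those of the first 2 days, and all of t1 below those of 3d and 4d. The log2 fold change was -1.37 for t1 (SE 0.54, edgeR adjusted p = 0.0495) and 0.59 for t2 (SE 0.22, edgeR adjusted p = 0.0373).

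The calls of g3279 were near the threshold. That of t1 held in 4 of the 18 fits that left out 1 library (2d replicate 2, 6d replicate 2, 7d replicate 1 or 7d replicate 3), with an edgeR adjusted p of up to 0.144 without 2d replicate 3. That of t2 held in 12 of 18, ending without 2d replicate 1 or 3, 3d replicate 1 or 2, 6d replicate 3 or 7d replicate 3 (up to 0.106, without 6d replicate 3). Without the 3 late libraries that correlated least with their replicates, the values were 0.114 and 0.242. The share of the gene late against early had an edgeR adjusted p of 0.0598.

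Crossings of 50% between days were also counted, without a test. In 14 of the 100 genes the leading isoform was above 50% in all 3 libraries of 1 day and below 50% in all 3 of another, and this held for 11.6% of 294 genes with at least 2 isoforms at a mean TPM of 1 or more. Another isoform was the highest in all 3 libraries of such a lower day in 12 of the 14, the exceptions being g7288, whose t1 was the highest isoform in 17 of 18 libraries, and g4806. The 12 include g6088 and g6281, which had 1 to 2 counts at its lower day, 2d. They also include g3593, whose g3593.t2 had 69.3 ± 8.17% at 2d and 43.2 ± 6.26% at 4d. No share test called g3593, which was named here after its values were seen.

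At the other end, besides g750, the shares of g9880 and g6314 moved least between days. The share of g9880.t2 (741 bases) was between 58.9 ± 5.90% at 5d and 63.3 ± 3.17% at 4d as a daily mean. That of g6314.t2 (450 bases) was between 78.6 ± 5.30% at 6d and 83.2 ± 3.79% at 2d, while the level of the gene was 103.4 ± 11.3 TPM at 2d and 403 ± 39.5 TPM at 4d. Both isoforms of g6314 were thus several times higher at 4d at nearly the same share, and its level differed over the days (edgeR adjusted p = 0.00782).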

How the data were processed

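Whole-body RNA was amplified with SMARTer and sequenced as single-end reads. The authors quantified the reads against predicted coding sequences with kallisto (0.42.4 in the methods, with 0.44.0 also in the processing notes), with bias correction and a fragment length of 350. Their methods also describe libraries size selected at a length shorter than this. Effective lengths depend on the fragment length set, and so do shares of TPM between isoforms of unlike length. Shares under another fragment length were not computed. They deposited estimated counts, without normalization, and TPM, scaled by effective length, for each transcript and library. No column belonged to other samples. Of the lengths, 99.6% are multiples of 3, so untranslated regions are absent.

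Shares were computed from TPM. Estimated counts were rounded to whole numbers, filtered with filterByExpr, scaled with TMM and tested with edgeR 4.0.16 (R 4.3.3; glmQLFTest, and diffSpliceDGE for shares), with day as the only term. Log2 ratios of TPM with a pseudocount of 1, for isoforms at a mean TPM of 1 or more, were tested with limma 3.58.1. Adjustment was by Benjamini-Hochberg over all features, at 0.05. Scripts were tested on simulated data. DESeq2 1.42.0, RLE factors, other pseudocounts and filters, the replicate block and leaving out libraries were alternatives.

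The genes named are the 5 most abundant, those called in a share test over the days (up to 5), the 3 uncalled with the smallest range of share, the 2 largest rises and 2 largest falls called in level, and those with opposite isoforms. Others were named where a count was 5 or fewer or at a threshold. The genes, lists and tests were chosen with earlier results of these data known. Outliers were not tested in groups of 3.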

Additional observations from a re-analysis of the deposited data

How the results depend on the processing

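Beside the 3 of 100 genes called in isoform share over the days, a pseudocount of 5 gave 10 genes and no filter on low values gave 7. The share called of all genes tested was not computed under the alternative settings. The counts here and below therefore have no background beside them. Leaving out the libraries of Juvenile 2d, chosen after seeing the data, also gave 3, of which g6281 and g4806 were the same and g9568 (limma adjusted p = 0.0378) took the place of g6088. For the share late against early (3 genes), the replicate block gave 1 gene. For the share at 4d against 3d (1 gene), leaving out Juvenile 6d replicates 1 and 3 and 7d replicate 3 gave 2 genes, the fit of Juvenile 3d and 4d only gave 2, and limma on the log2 ratio of TPM gave 0 (with 6 of the 100 genes, and 8.41% of all genes tested, at an unadjusted p under 0.05 in edgeR). A threshold of 20 TPM in place of 10 left 41 genes of 101, one of 5 TPM 149. The cause of these changes was not tested. Under RLE factors, no filter on low counts, DESeq2 and without the 3 late libraries, the level was called in 77 to 92 genes over the days and in 46 to 58 late against early. Leaving out each library in turn gave 70 to 89 genes for the level over the days (81), 46 to 65 for the level late against early (52), 1 to 3 for opposite isoforms (3), 1 to 7 for the share late against early, 0 to 2 for the share at 4d against 3d and 2 to 4 for the share over the days. The 7 came without Juvenile 6d replicate 1, and the 0 without Juvenile 3d replicate 1 or 2. The 1 for the share late against early came without 2d replicate 1, 3d replicate 2, 4d replicate 1 or 2, or 7d replicate 2, and the 1 for opposite isoforms without 2d replicate 1, 3d replicate 1 or 2, or 6d replicate 3.

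The labels do not say whether libraries with the same replicate number have anything else in common. Deviations of same-numbered libraries from the means of their days had a median correlation of -0.04 (-0.44 to 0.26), and 1 of 18 libraries correlated best with its own number. With the replicate block, 77 genes were called in level over the days, 48 in level late against early, 2 with opposite isoforms, 1 in share at 4d against 3d and 2 in share over the days. The within-day SD of the leading share had a median of 9.78 points, and the part of read division in the share calls was not tested.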
